A study of Mytilus galloprovincialis with 12 samples.

Results

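The clones studied here are the 100 cDNA clones that gave the brightest vehicle signal in the digestive gland of female mussels (Mytilus galloprovincialis), out of 1920 clones on the array. They were chosen from the vehicle channel of 12 dual color arrays. On each array the signal of a clone was its mean spot brightness minus the median of its local background, averaged over 2 spots, and clones were ranked from the dimmest (1) to the brightest (1920). The 100 clones with the highest mean rank were taken among the 1752 clones that had a deposited value and whose deposited log2 ratios ranged over no more than 3.5 between arrays. The rank is therefore what defines these clones, and their high vehicle signal is a description. A spot's brightness also depends on the length and labelling of its cDNA, so the order of brightness is not an order of transcript number, and fewer cells of a type cannot be told apart from less RNA per cell in these tissue pools.

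Each array held RNA from 1 pool of 6 digestive glands of treated females, collected in October, against RNA of vehicle females. The treatments, 4 arrays each, were chlorpyrifos (CHP) at 4.5 mg/L, injection of 25 pmol of 17β-estradiol (E2) into the posterior adductor muscle, and CHP followed by the same injection (CHP/E2). The labels give 4 days in CHP for the CHP arrays and 3 days before the injection for CHP/E2. Vehicle animals were kept in 0.02% DMSO for 4 days and received, after 3 days, 50 µl of artificial sea water with 0.05% ethanol; the labels of the CHP arrays mention no injection and those of the E2 arrays no DMSO. By the methods, however, both CHP groups spent the same time in CHP, mussels with CHP alone received the vehicle injection, and those with E2 alone were kept in the DMSO vehicle. Treated RNA was labelled with Cy5, except on 1 array of each treatment (replicate 3 of CHP and replicate 4 of the other two), where it was labelled with Cy3. The names of the scans give replicates 2 and 4 of E2 the same number for the treated pool, and likewise replicates 3 and 4 of CHP/E2, so those arrays may share animals, although the labels count them as separate replicates. By the same names, replicates 1 and 2 of each treatment shared a slide.

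The digestive gland is the main organ of intracellular digestion and nutrient storage in bivalves, and its cells are rich in lysosomes. It also takes up and processes contaminants. CHP is an organophosphate whose oxidized form blocks acetylcholinesterase, and E2 is the main vertebrate estrogen, to which mussel tissues also respond. In digestive tissues a small set of transcripts, such as those of secreted enzymes, ribosomal proteins and mitochondrial subunits, usually makes up much of the messenger RNA. Which of these the 100 clones represent was not analysed here: the files name clones by ID only, and 0 of the 1920 IDs occurred in the RefSeq gene table. Marker genes of the digestive gland and of other cell types could not be looked up for the same reason, and the clones are called by their IDs.

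The 100 clones stood far above the bulk of the array in vehicle RNA. Their median signal was 13.3 to 21.6 times the median of all clones, depending on the array, with a median over arrays of 17.0. It lay between 659 and 2514 scanner units on the 9 arrays with vehicle RNA in Cy3 and between 6041 and 9428 on the 3 arrays with vehicle RNA in Cy5. CHP/E2 replicate 3 was the dimmest array, with a median of 659. No spot reached the scanner's maximum, the brightest being at 36793. Depending on the array, 98 to 100 of the 100 clones had both spots more than 2 background SDs above background in at least 1 channel, treated or vehicle. Detection in the vehicle channel alone was not counted.

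**Figure D1:**
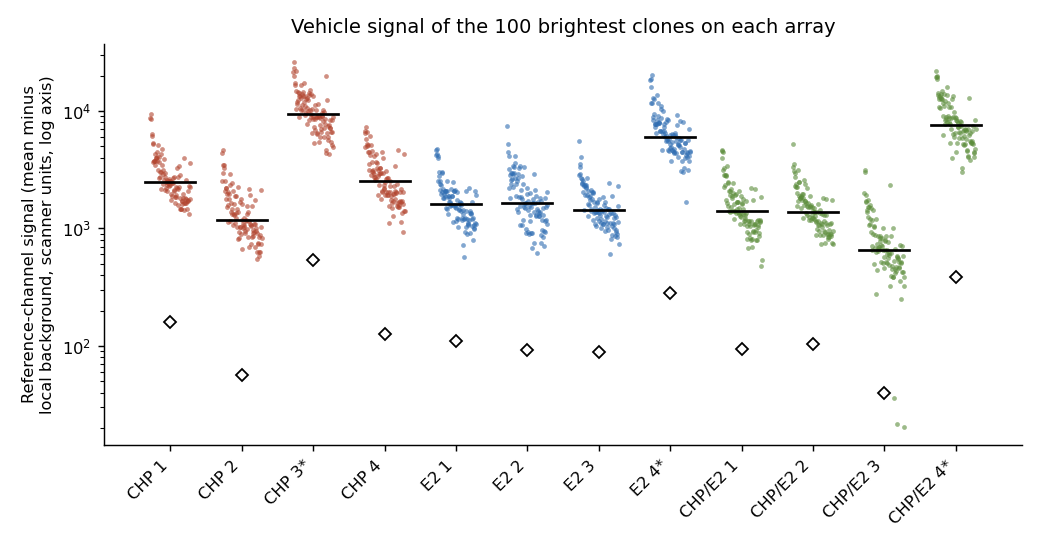
Vehicle (reference) signal of the 100 clones on each of the 12 arrays, in scanner units on a log axis, with the clones placed from left to right by mean rank. Black bars are the medians of the 100 clones, open diamonds the medians of all 1920 clones, and asterisks mark the 3 arrays with vehicle RNA in Cy5; 3 clones of CHP/E2 replicate 3 lie at or below the median of all clones.

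The arrays that defined the clones ranked them much alike. Of the 100 clones, 72 to 85 were also among the 100 brightest eligible clones of a single array, and 39 were so on all 12. As each array took part in the choice, the ranking was repeated without it, and 70 to 83 of the clones so chosen were among the 100 brightest of the array left out. The vehicle ranks of all clones on an array had a median correlation with those of the other arrays of 0.898 or more, except 0.842 on CHP/E2 replicate 3. The 3 lowest single ranks also came from that array. There Myt01-009E04 ranked 571 with a vehicle signal of 20.5, against at least 1738 on each other array. Myt01-013G02 ranked 606 with 21.5 against at least 1698 elsewhere, and Myt01-009E06 ranked 908 with 36 against at least 1472. All 3 were dim in the treated channel of the same array as well, at 33.5, 26 and 45.5, so their log2 ratios there (0.05, -0.06 and -0.17) came from spots with little signal in both channels.

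Among the eligible clones the highest mean rank, 1912.92, was shared by Myt01-009F03 and Myt01-015B05. The vehicle signal of Myt01-009F03 was lowest at 2010, had a median of 5210 and was highest at 22006 over the 12 arrays. Its rank never fell below 1901. Myt01-015B05 ran from 2515 over a median of 5241 to 23374. Myt01-014F09 had the narrowest span of ranks among the leading 5, from 1906 to 1919. Myt01-018A07, Myt01-019A04, Myt01-010E11, Myt01-006E09, Myt01-011G10, Myt01-015C02 and Myt01-017B10 completed the 10 brightest, with medians from 4711 for Myt01-018A07 to 2569 for Myt01-017B10. At the other end, the last 3 inside the limit were Myt01-009E04, Myt01-009B02 and Myt01-007H05, at mean ranks of 1759.50, 1759.25 and 1756.71. The first 3 outside were Myt01-017D02, Myt01-006E02 and Myt01-016H11, at 1756.62, 1756.58 and 1754.92. The limit thus passes through a continuous series of ranks.

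The bright clones were spread unevenly over the plate numbers in the clone IDs. Of the 20 plates, 18 had at least 1 of the 100 clones. Plate 9 held 19 of them among 88 eligible clones (21.6%) and plate 10 held 14 among 92 (15.2%), where 5.71% of all eligible clones were chosen. No other plate held more than 9. The median mean rank of the eligible clones was 932 on plate 9 and 1367 on plate 10, against 925 over all eligible clones, so plate 10 was bright as a whole whereas plate 9 was not. Plates 2 and 20 held none, and plate 20 was the dimmest, at a median mean rank of 89.4.

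**Figure D2:**
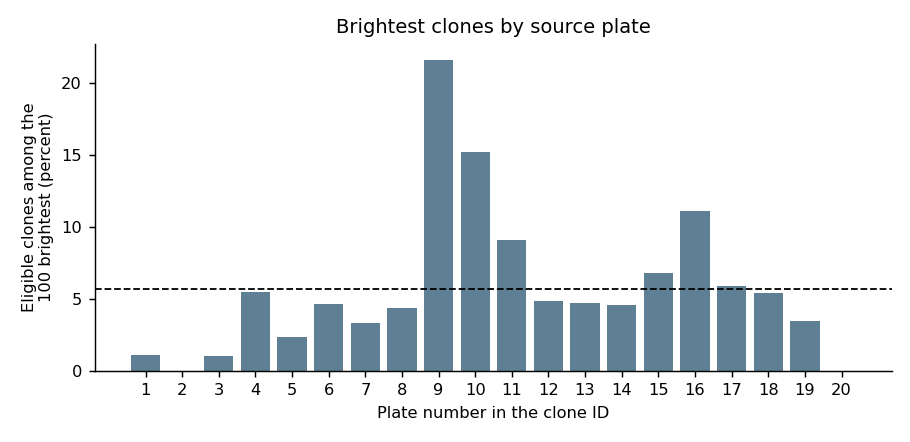
Percent of the eligible clones of each plate that were among the 100 brightest in vehicle RNA, by the plate number in the clone ID. The dashed line marks 5.71%, the share over all plates; plates 9 and 10 reached 21.6% and 15.2%.

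How these abundant signals answered the 3 treatments was read from the log2 ratio of treated to vehicle RNA, after background correction and loess normalization of each array. Ratios were tested with limma over all 1816 clones with a deposited value, and a clone was called a DEG at a log odds (B) above 0. Of these 1816 clones, 848 had both spots more than 2 background SDs above background in at least 1 channel on every array. The shares of all clones given below therefore include dim clones, and the effect of brightness on being called was not tested. The vehicle signal that chose the clones is also the denominator of these ratios. Each comparison with vehicle RNA was also repeated with 100 clones ranked only on the arrays of the other treatments. This changed only the arrays used for ranking, and 96 (CHP), 93 (E2) and 93 (CHP/E2) of the 100 clones were chosen again. Vehicle pools are also not known to be separate for each array. The repeat therefore cannot separate the choice by vehicle signal from a response, and no conclusion is drawn from it.

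After loess normalization, which centres ratios at each level of brightness, most of the brightest clones had ratios close to 0 in every treatment. The median log2 ratio of the 100 clones was -0.04 with CHP, -0.03 after E2 and -0.03 after CHP/E2, against medians between -0.01 and 0.00 over all clones tested. With median centring, which makes no adjustment by brightness, the medians of the 100 clones were -0.29, 0.16 and 0.16. The direction thus turned with E2 and CHP/E2, and the cause of this shift was not tested. After loess the middle of the distribution, from the 25th to the 75th percentile, ran from -0.17 to 0.06, from -0.12 to 0.08 and from -0.13 to 0.07. With CHP 61 of the 100 clones lay below 0, with E2 58 and with CHP/E2 59. When clones were ranked on the other arrays, 96, 93 and 93 of the 100 clones were chosen again and the medians were -0.04, -0.02 and -0.01. As nearly the same clones were chosen, these medians cannot show the part of the choice by vehicle signal in the lean below 0. That part was not tested.

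**Figure D3:**
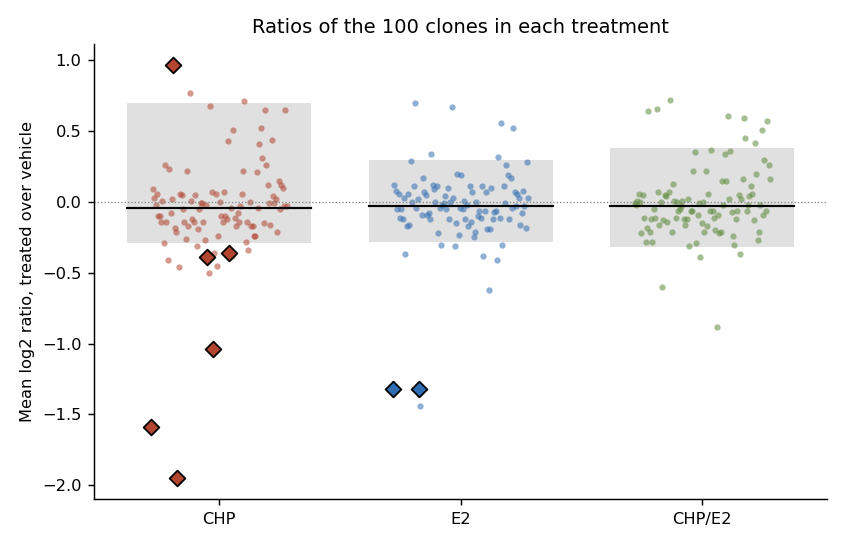
Mean log2 ratio of treated to vehicle RNA of the 100 clones in each treatment (n = 4 arrays each), one point per clone, placed from left to right by mean rank. Diamonds are the 6 DEGs of CHP and the 2 of E2, black lines the medians of the 100 clones (-0.04, -0.03 and -0.03), and grey bands the 5th to 95th percentiles of all 1816 clones tested, such as -0.29 to 0.70 for CHP.

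CHP gave 6 DEGs among the 100 clones, where 2.15% of all clones tested were called, and these were mostly lowered. Of them 5 fell, against 0.771% of all clones called lower, and 1 rose, against 1.38% called higher. Ranking the clones on the arrays of E2 and CHP/E2 alone, which kept 96 of the 100, gave 7 DEGs with CHP, 6 of them lower. At a Benjamini-Hochberg adjusted p below 0.05, 12 of the 100 clones passed, 8 lower and 4 higher, with 3.91% of all clones passing (1.27% lower and 2.64% higher). The 6 DEGs were Myt01-009F03, Myt01-008H06, Myt01-016D05, Myt01-006D02 and Myt01-014H09, all lower, and Myt01-009D08, which was higher. Without CHP replicate 1 only 3 of the 100 clones were called, and with median centring in place of loess only 2, Myt01-009F03 and Myt01-008H06. The share of all clones called was not compared under these alternatives.

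E2 gave 2 DEGs among the 100 clones, where 0.441% of all clones tested were called. Both were lower, Myt01-009F03 and Myt01-008H06. The same 2 DEGs resulted when the clones were ranked on the other arrays, which kept 93 of the 100. With median centring neither was called, and the share of all clones called there was not compared. CHP/E2 gave no DEG among the 100 clones at B above 0 in limma, where 0.771% of all clones were called, all of them higher. At an unadjusted p below 0.05, 25 of the 100 clones passed with CHP/E2, with 12.7% of all clones passing. After adjustment none of the 100 passed, where 0.330% of all clones did. The corresponding unadjusted counts were 30 of 100 with CHP (21.8% of all clones) and 16 of 100 with E2 (8.37%).

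The clone that led the eligible ones in vehicle signal was also among those that changed. The log2 ratios of Myt01-009F03 were -1.42, -1.19, -1.90 and -1.86 on the 4 CHP arrays, and -0.70, -1.44, -1.51 and -1.62 after E2 alone. After CHP/E2 they were 0.32, -0.03, 0.12 and -0.46. Every CHP and E2 value lay below every CHP/E2 value, and the CHP and E2 values overlapped. It fell 3.01-fold with CHP (-1.59 ± 0.35, SD, n = 4; limma adjusted p = 0.000529) and 2.49-fold with E2 (-1.32 ± 0.42; adjusted p = 0.00761). With CHP/E2 the mean was -0.01 ± 0.33 (adjusted p = 0.994). The fall with E2 stayed called at B above 0 in all alternatives but median centring. Its limma adjusted p exceeded 0.05, however, with arrays of the same pool number averaged and with only the E2 arrays in the fit. The same held without E2 replicate 3, without E2 replicate 4, and without the arrays with treated RNA in Cy3.

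Myt01-008H06, the clone at place 20, had the same course. It read -2.16, -1.41, -1.96 and -2.29 with CHP, -0.86, -1.49, -1.49 and -1.42 with E2, and 0.21, 0.09, 0.25 and -0.55 with CHP/E2. Again the CHP/E2 values stood above all others, while 1 CHP value lay within the range of the E2 values. It fell 3.87-fold with CHP (-1.95 ± 0.39; limma adjusted p = 0.000123) and 2.49-fold with E2 (-1.32 ± 0.31; adjusted p = 0.00761), and its mean with CHP/E2 was 0.00 ± 0.38. Its E2 call was likewise lost only with median centring. With arrays of the same pool number averaged, its limma adjusted p with E2 stayed below 0.05. That p exceeded 0.05 without E2 replicate 3, without E2 replicate 4, without the Cy3-treated arrays and with only the E2 arrays in the fit. Over the 12 arrays the ratios of Myt01-008H06 and Myt01-009F03 correlated at 0.963, the highest value among the 4950 pairs of these clones, whose median was 0.0125. All arrays share the kind of vehicle reference, so this is a description. Whether both clones carry the same or a related cDNA was not analysed here.

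The differences between treatments were tested directly: the effect of CHP in E2-injected mussels, that of E2 in CHP-exposed mussels, and CHP against E2. Departure from additivity was not tested here. Between CHP/E2 and E2, 2 of the 100 clones were called, where 0.330% of all clones were, and between CHP/E2 and CHP, 2 were called, where 0.165% of all clones were. In both comparisons they were Myt01-009F03 and Myt01-008H06, higher with CHP/E2. CHP/E2 exceeded E2 by 1.31 (SE 0.24) in Myt01-009F03 and by 1.31 (SE 0.23) in Myt01-008H06, with limma adjusted p = 0.0744 for both. These 2 calls passed at B above 0 but not at an adjusted p of 0.05, which 0.0551% of all clones passed, and both were lost without any single one of 6 arrays (E2 replicates 2, 3 and 4 and CHP/E2 replicates 1, 2 and 3). With arrays of the same pool number averaged, the call of Myt01-009F03 was also lost. On the slide that carried both treatments, E2 replicate 3 and CHP/E2 replicate 3, the difference was 1.64 in Myt01-009F03 and 1.74 in Myt01-008H06.

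CHP/E2 exceeded CHP by 1.58 (SE 0.24; limma adjusted p = 0.0344) in Myt01-009F03 and by 1.95 (SE 0.23; adjusted p = 0.00786) in Myt01-008H06, and both calls held without any single array. At an unadjusted p below 0.05, 17 of the 100 clones passed in each of the 2 comparisons, against 8.87% of all clones for CHP/E2 minus E2 and 13.6% for CHP/E2 minus CHP. No slide carried both CHP and CHP/E2 arrays, so no value within a slide can be given. CHP and E2 themselves did not differ at B above 0 in any of the 100 clones in limma, where 0.220% of all clones were called, and 7 of 100 had an unadjusted p below 0.05, against 8.37% of all clones. For Myt01-008H06 the difference of CHP minus E2 was -0.64 (SE 0.23; adjusted p = 0.523), and for Myt01-009F03 it was -0.27 (SE 0.24; adjusted p = 0.717).

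**Figure D4:**
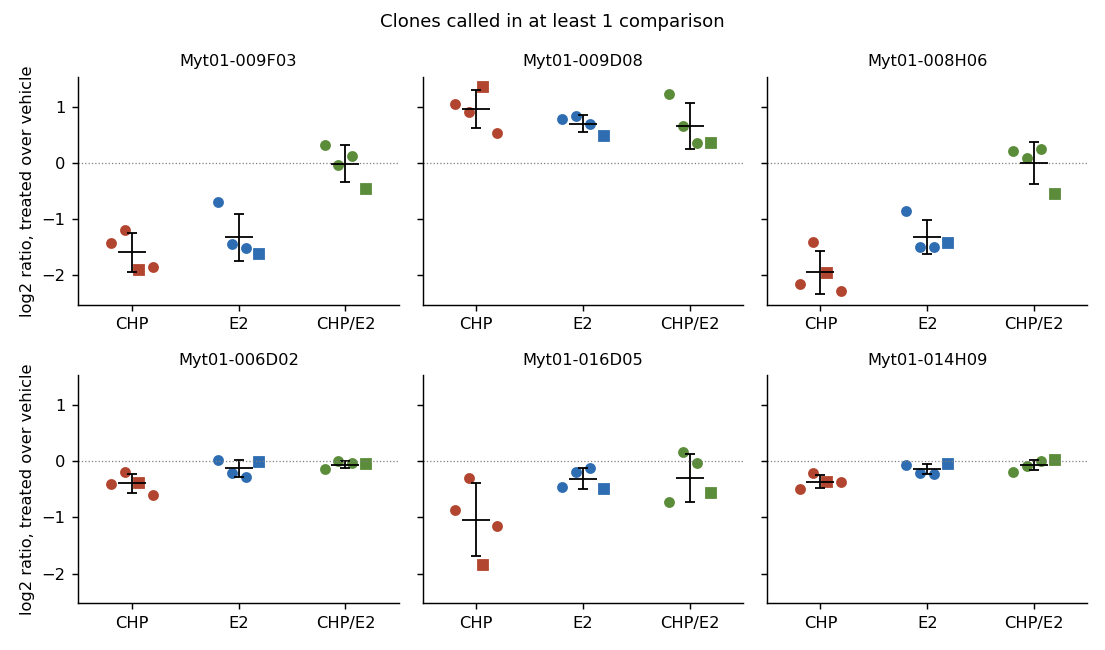
Log2 ratio of treated to vehicle RNA on each array for the 6 clones called in at least 1 comparison, by treatment. Circles are arrays with treated RNA in Cy5, squares those with treated RNA in Cy3, and bars show the mean ± SD (n = 4). Myt01-009F03 and Myt01-008H06 lie near 0 only with CHP/E2.

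The other DEGs of CHP were called in no other comparison. The ratios of Myt01-016D05 were -0.87, -0.29, -1.84 and -1.16 with CHP, and between -0.49 and -0.11 with E2 and between -0.73 and 0.17 with CHP/E2. The CHP values overlapped both other groups through replicate 2. Its mean of -1.04 ± 0.65 (limma adjusted p = 0.0232) was the least secure, since the residual SD of 0.462 exceeded that of 89.8% of all clones, and the call was lost without any single one of 9 arrays, among them CHP replicates 1, 3 and 4. It was also lost with the slide as a random block and with arrays of the same pool number averaged.

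Myt01-006D02 and Myt01-014H09 changed little but evenly. Myt01-006D02 read -0.40, -0.18, -0.38 and -0.60 with CHP, a fall of 1.31-fold (-0.39 ± 0.17; limma adjusted p = 0.0130). Myt01-014H09 read -0.50, -0.21, -0.37 and -0.36, a fall of 1.29-fold (-0.36 ± 0.12; adjusted p = 0.00654). With CHP/E2 the same clones averaged -0.06 ± 0.06 and -0.06 ± 0.09, and with E2 -0.12 ± 0.15 and -0.14 ± 0.09. All 4 CHP values of each clone lay below all its CHP/E2 values, by little in Myt01-014H09, where the nearest were -0.21 and -0.19. The difference of CHP/E2 minus CHP was 0.33 (SE 0.10; adjusted p = 0.251) and 0.30 (SE 0.08; adjusted p = 0.237), so it was not called. Without CHP replicate 1 neither clone was called with CHP, and Myt01-006D02 was also lost without replicate 3 and without replicate 4.

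Myt01-009D08 was the 1 clone of the 100 called higher with CHP at B above 0. Its ratios were 1.06, 0.92, 1.35 and 0.54 with CHP, 0.78, 0.84, 0.70 and 0.49 with E2, and 1.24, 0.66, 0.36 and 0.36 with CHP/E2. All 12 values were above 0 and the 3 groups overlapped. The rise with CHP was 1.95-fold (0.97 ± 0.34; limma adjusted p = 0.00551). The means of 0.70 ± 0.15 with E2 and 0.66 ± 0.41 with CHP/E2 were not called (adjusted p = 0.111 for both), but both were called with print-tip loess, the deposited ratios, separate duplicate spots or the replicate block. None of the differences between treatments was called (largest -0.31, SE 0.21, for CHP/E2 minus CHP). The call with CHP was kept without any single array but lost when all 3 arrays with treated RNA in Cy3 were left out.

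Other clones had 1 direction on all 4 arrays of a treatment without being called. With CHP, Myt01-015D05 read 0.88, 0.14, 1.15 and 0.68 (0.71 ± 0.43; limma adjusted p = 0.0408) and Myt01-009B07 read 0.91, 0.28, 0.72 and 0.82 (0.68 ± 0.28; adjusted p = 0.0261). Both passed the adjusted p but not B above 0. With E2, Myt01-009B07 averaged 0.67 ± 0.45, the same as with CHP within its spread, and Myt01-004E10 averaged 0.56 ± 0.38, neither of them called. Myt01-009F02 had the lowest mean of all 100 clones with E2, -1.44 ± 0.92, from values of -0.53, -1.76, -0.88 and -2.58 (adjusted p = 0.312), and its residual SD of 1.06 was the highest among the 100.

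With CHP/E2 the one-directional rises were led by Myt01-008G02, Myt01-009D08 (0.66, given above) and Myt01-017B12, and the falls by Myt01-010H04. Myt01-008G02 read 0.96, 0.29, 0.91 and 0.72 (0.72 ± 0.31) and Myt01-017B12 read 0.86, 0.84, 0.44 and 0.45 (0.64 ± 0.23), with limma adjusted p = 0.122 for both. All CHP/E2 values of Myt01-017B12 lay above its 4 E2 values, which ran from -0.53 to 0.25, and the difference of 0.81 (SE 0.22; adjusted p = 0.282) was not called. At the lower end Myt01-010H04 read -0.83, -0.36, -1.38 and -0.97 (-0.88 ± 0.42; adjusted p = 0.156). With CHP the same clone read 0.38, -0.26, 0.69 and 1.21, so every CHP/E2 value was below every CHP value, and the difference of -1.39 (SE 0.35; adjusted p = 0.184) was not called either. Myt01-015H12 averaged -0.39 ± 0.31 and Myt01-012C08 -0.37 ± 0.13 with CHP/E2. For Myt01-012C08 the E2 mean was 0.32 ± 0.34 and the difference of CHP/E2 minus E2 was -0.69 (SE 0.17; adjusted p = 0.208).

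The other 9 of the 10 brightest clones were not called in any comparison. Their mean ratios lay between -0.37 and 0.12 in all 3 treatments. The lowest of these means, -0.37 ± 0.21 with E2, was that of Myt01-017B10, which read -0.23, -0.16, -0.60 and -0.49 (limma adjusted p = 0.199). This clone was called lower with E2 only in alternative fits, with separate duplicate spots or the replicate block. Its CHP mean was -0.29 ± 0.22 and its CHP/E2 mean -0.18 ± 0.20, so all 3 means were below 0 and within the spread of each other. Myt01-014F09 was the steadiest, with means of 0.03 ± 0.20, 0.08 ± 0.08 and 0.01 ± 0.06.

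Read over all 100 clones, changes in one direction on all 4 arrays of a treatment were somewhat more often downward. With CHP 19 of the 100 clones were below 0 on all 4 arrays, against 11.7% of all clones tested, and 12 were above 0 on all 4, against 11.8%. With E2 the numbers were 17 below (10.3%) and 9 above (11.4%), and with CHP/E2 they were 14 below (7.32%) and 10 above (10.5%). Mean ratios of at least 0.5 in size were found in 12 clones with CHP (8.54% of all clones), 8 with E2 (2.97%) and 9 with CHP/E2 (5.45%). These counts describe the 100 clones, and the choice by vehicle signal bears on them as on the medians.

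The clones whose ratios ran closest to the DEGs were looked up, and how many ran close was not counted. After Myt01-008H06, the next for Myt01-009F03 were Myt01-018F02 (r = 0.683 over the 12 arrays) and Myt01-006D02 (r = 0.657). For Myt01-008H06 the next were Myt01-006D02 (r = 0.762) and Myt01-014H09 (r = 0.747). Myt01-006D02 and Myt01-014H09 ran together at r = 0.883, and Myt01-014H09 with Myt01-008E06 at r = 0.759. Myt01-016D05 ran closest to Myt01-007B10 (r = 0.850), whose CHP values of 0.11, 0.46, -1.50 and -1.08 did not share a direction. For Myt01-009D08 the highest value was 0.621, with Myt01-004E10. Only 2 further pairs of the 100 clones were above 0.9, Myt01-011D07 with Myt01-012D07 (0.959) and Myt01-008G02 with Myt01-010E12 (0.904). The ratios of 1 array share their slide, dyes and vehicle RNA, and these correlations are given as a description.

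The 100 clones had closer duplicate spots than the other clones but not a smaller spread between arrays. The 2 spots of a clone on an array differed by a median of 0.0428 on the log2 scale among the 100 clones and of 0.0693 among the other 1716 clones tested. The residual SD between arrays of a treatment had a median of 0.221 among the 100 clones and of 0.193 among the others. The 5 widest were Myt01-009F02 (1.06), Myt01-009C06 (0.935), Myt01-007B10 (0.680), Myt01-004C08 (0.636) and Myt01-010H04 (0.549). Myt01-009C06, for example, ran from -1.63 to 0.77 within CHP, from -1.79 to 0.42 within E2 and from -0.50 to 1.29 within CHP/E2, and its groups overlapped throughout. The limit of 3.5 on the range of deposited ratios removed the widest clones beforehand, which bears on these SDs. The other clones also include dim ones, and the part of brightness in these SDs was not tested.

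The 100 clones remained among the brightest in treated RNA. In the treated channel 72 to 81 of them were among the 100 brightest eligible clones on the CHP arrays, 72 to 82 on the E2 arrays and 73 to 79 on the CHP/E2 arrays. They held 25.9% to 32.5% of the summed signal of all clones in the vehicle channel. In the treated channel they held 23.4%, 31.4%, 21.3% and 27.9% on the 4 CHP arrays, 30.2%, 28.5%, 30.4% and 26.7% after E2, and 31.0%, 29.1%, 29.9% and 26.3% after the combined treatment. The treated share was below the vehicle share on all 4 CHP arrays and above it on 2 of 4 E2 arrays and 3 of 4 CHP/E2 arrays.

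Treated minus vehicle share averaged -4.94 ± 3.63 percentage points with CHP (SD, n = 4), -0.375 ± 3.44 after E2 and 1.12 ± 4.76 after the combined treatment. The 3 pairs of treatments were compared with a two-sided exact permutation test, whose smallest possible p is 0.0286, and none passed. The difference was -4.57 points for CHP minus E2 (exact p = 0.143, adjusted over the 3 pairs 0.214), 6.06 for CHP/E2 minus CHP (exact p = 0.0857, adjusted 0.214) and 1.49 for CHP/E2 minus E2 (exact p = 0.60, adjusted 0.60). The vehicle signals that chose the clones enter this share, and ranking on other arrays, which kept most of the clones, cannot remove this. With the clones of each array ranked on the arrays of the other treatments, the differences were -4.42, 6.03 and 1.61 points (exact p = 0.143, 0.0857 and 0.571; adjusted 0.214, 0.214 and 0.571). On all 3 arrays with treated RNA in Cy3 the treated share was lower than the vehicle share. The differences there were -8.75 points after CHP, -4.99 after E2 and -6.02 after the combined treatment. With treated RNA in Cy5 they were -6.26, -0.123 and -4.64 points on the other CHP arrays. On the other E2 and CHP/E2 arrays they lay between -0.291 and 3.67. The part of the dye in the share was not tested. Shares were taken from signals before loess normalization, and each treatment had 1 array with treated RNA in Cy3. The permutation test took the arrays as independent, although some shared a slide and some may share a pool, so no conclusion is drawn from its p-values.

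**Figure D5:**
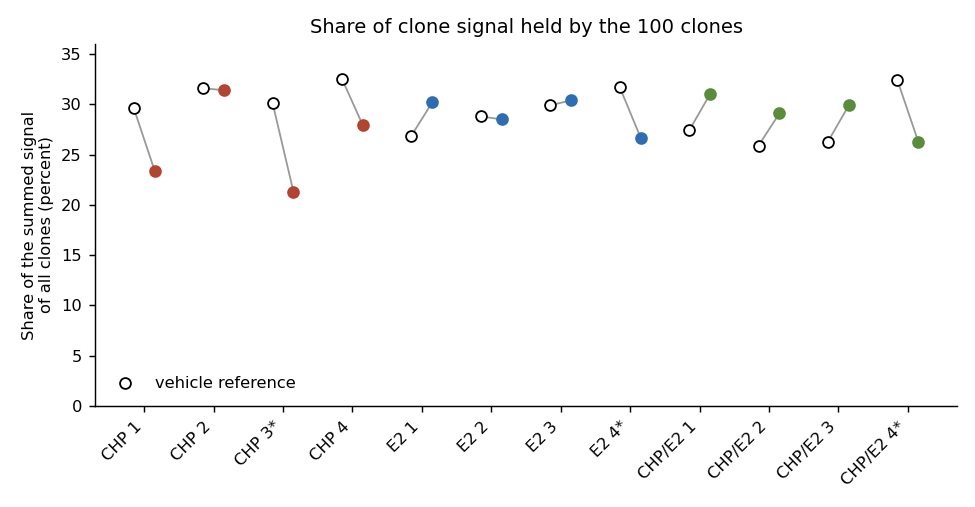
Percent of the summed signal of all 1920 clones held by the 100 clones in the vehicle channel (open circles) and in the treated channel (filled circles) of each array, with a line joining the 2 channels. Asterisks mark the 3 arrays with treated RNA in Cy3, on which the treated minus vehicle share was -8.75, -4.99 and -6.02 percentage points; it was below 0 on all 4 CHP arrays.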

How the data were processed

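The scanner files hold intensities as deposited by the authors, with no background subtracted: for every spot, its mean brightness and its local background's median at 635 nm (Cy5) and 532 nm (Cy3). The deposited value table holds the authors' normalized log2 ratios of 1816 clones, made with limma (version and settings not given in the sources used here); it served to choose the clones and as an alternative. Ratios recomputed here correlated with it at 0.881 or more on every array. Background was corrected by normexp (offset 50) and each array normalized by loess, with 720 alignment and blank spots at weight 0. The 2 spots of a clone were averaged, and 1 limma fit (lmFit, eBayes, prior proportion 0.01) over 12 arrays gave 6 comparisons, with calls at B above 0 and Benjamini-Hochberg adjusted p-values over all 1816 clones. The fit was tested on simulated data.

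Signal over background stands for depth, and 4 arrays per treatment limit the precision. Nothing says that vehicle pools were separate for each array, so p-values measure the spread between these arrays. The clones, lists, tests and alternatives were chosen with earlier results of these data known. The text names the 10 brightest clones, all DEGs, the 3 largest rises and falls of each treatment among clones of 1 direction on 4 arrays, the clones at the limit of 100, and, chosen after their values were seen, the clones of widest spread, lowest single rank and highest pair correlations. Planned lists of genes and markers could not be applied to clone IDs. R 4.3.3, limma 3.58.1, statmod 1.5.0 and Python with numpy, pandas, scipy and matplotlib were used.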

Additional observations from a re-analysis of the deposited data

Results flagged for a closer look

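In E2 replicate 1 the log2 ratio of Myt01-008H06, -0.86, stood apart from the other 3 E2 arrays, which ranged from -1.49 to -1.42. In CHP/E2 replicate 4 the treated minus vehicle share of the signal held by the 100 clones was -6.02 points, whereas it was positive, between 3.16 and 3.67, on the other 3 CHP/E2 arrays; that array alone in its group had treated RNA in Cy3. In CHP/E2 replicate 3, 73 of the 100 clones were among the 100 brightest in treated RNA, below the other arrays of the group at 78 or 79. These are 3 of 26 groups of 4 arrays examined, and chance alone flags about 5% of groups.

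The tested differences between treatments were past the threshold for the same 2 clones. CHP/E2 exceeded E2 by 1.31 in both Myt01-009F03 and Myt01-008H06, and it exceeded CHP by 1.58 in Myt01-009F03 and by 1.95 in Myt01-008H06.

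Clones without a deposited value were common among the brightest spots. If all 1920 clones are ranked, 31 of the 100 brightest in vehicle RNA have no deposited value and so could not be chosen, and the other 69 are among the 100 clones described above.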

How the results depend on the processing

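The choice of clones was stable: 94 of the 100 were kept with median ranks, 94 with the 9 arrays whose vehicle RNA was in Cy3, 98 without background subtraction, 96 without the limit on the range, and 97 to 98 without any single array. Members called with CHP (6) came to 2 with median centring, 15 with separate duplicate spots, 2 with only the CHP arrays in the fit, 3 without the arrays with treated RNA in Cy3, 12 at adjusted p below 0.05, 30 at unadjusted p below 0.05, 15 among 200 clones and 3 to 9 without 1 array. With E2 (2) they came to 0 with median centring, 8 with separate spots, 6 with array weights, 16 at unadjusted p below 0.05 and 2 to 3 without 1 array. With CHP/E2 (0) they came to 3 with print-tip loess, 2 with the deposited ratios, 8 with separate spots, 1 each with array weights, with a dye term, without the arrays with treated RNA in Cy3 and among 200 clones, 25 at unadjusted p below 0.05 and 0 to 2 without 1 array. For CHP/E2 minus E2 (2) they came to 0 with median centring, 7 with separate spots, 1 with arrays of one pool number averaged, 0 at adjusted and 17 at unadjusted p below 0.05, and 0 to 3 without 1 array. For CHP/E2 minus CHP (2) they came to 1 with median centring, 5 with separate spots, 17 at unadjusted p below 0.05 and 2 without any 1 array. For CHP minus E2 (0) they came to 7 at unadjusted p below 0.05, 2 among 200 clones and 0 without any 1 array. With separate spots the 2 spots of a clone entered the fit as correlated observations, at an estimated correlation of 0.826. The causes of these changes were not tested. Where the fit or normalization changed, here and below, the share of all clones called was not compared. These counts therefore do not separate a change in the 100 clones from a change in all clones.

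Deviations of same-numbered arrays from their group means correlated between -0.453 and 0.605, with values of both signs. Whether replicate numbers pair the arrays was not tested. With the replicate block, 5 members were called with CHP, 4 with E2, 1 with CHP/E2, 2 for each difference with CHP/E2 and 0 for CHP minus E2.

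The median log2 ratio of the 100 clones with CHP (-0.04) was -0.07 with plain subtraction, -0.08 with print-tip loess, -0.29 with median centring, -0.08 with the deposited ratios, -0.10 for 50 clones and -0.07 to -0.04 without 1 array. With E2 (-0.03) it turned to 0.16 with median centring, and ran from -0.04 to -0.02 without 1 array. With CHP/E2 (-0.03) it turned to 0.16 with median centring, was -0.07 with the deposited ratios and -0.06 for 50 clones, and ran from -0.06 to -0.01 without 1 array. The difference in share of signal for CHP/E2 minus E2 (1.49 points) turned to -0.0459 without E2 replicate 4 and was at most 3.87 without another array. The ratios of the DEGs, their tested differences and the 3 largest rises and falls of each treatment kept their direction under every alternative run. The ratios of the other named clones were not compared across alternatives. With CHP the calls of Myt01-016D05, Myt01-006D02 and Myt01-014H09 were lost under 16, 11 and 7 of 30 alternatives. Myt01-009D08 passed the threshold used under 10 of 30 alternatives with E2 and 5 of 30 with CHP/E2. Fits without the Cy3-treated arrays or over all 1920 clones, and shares and overlaps with clones ranked on other arrays, were added after seeing the data. Foreground medians were not used here, and no spot was saturated, so these alternatives were not run.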

Other observations

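The 31 bright clones without a deposited value had signals as high as the chosen ones. Myt01-019B01 led them with a mean rank of 1916 and vehicle signals from 2982 to 28582. Plate 12 held 8 of the 31 and plate 19 held 5. In a limma fit over all 1920 clones, chosen after the data had been seen, none of the 31 was called at B above 0 in any treatment. Among the clones with a deposited value 2.15% (CHP), 0.441% (E2) and 0.771% (CHP/E2) were called in the fit over those clones. With 31 clones at such shares, the lack of calls says little about them. Unadjusted p below 0.05 was reached by 4 of them with CHP, by 1 after E2 and by 6 after the combined treatment, where 21.8%, 8.37% and 12.7% of the clones with a deposited value reached it in the fit over those clones. The median log2 ratios were 0.05, 0.07 and 0.00. The smallest p with CHP was that of Myt01-012D12, at a log2 ratio of -0.43 (limma adjusted p = 0.114). After E2 it was that of Myt01-017F07 at 0.17 (adjusted p = 0.363), and with CHP/E2 that of Myt01-016B08 at 0.58 (adjusted p = 0.119).

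The limit on the range removed only 4 clones that would otherwise have been among the 100 brightest with a value. Of the 100 kept, 7 had deposited log2 ratios that ranged over more than 2, up to 3.44, while the median range was 0.72, against 0.92 over all clones with a value.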
